A study of Capra hircus with 3 samples.

Results

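The comparison described here sets the longissimus dorsi of an adult goat stage (24 months) against that of a youth stage (9 months), across gene families and functions read from the product text that the deposited table gives for each gene. Rows were taken where the FPKM of kid, youth and adult averaged 1 or more, which kept 12121 of 24689 rows. It uses 2 of the 3 libraries of the series, 1 for youth and 1 for adult. The kid library (2 months) is given beside them for its levels and takes part in no difference. The animals are goats (Capra hircus), and the labels name no treatment, genotype or diet for any stage. The sources used here do not give sex or breed, or say whether a library holds 1 animal or a pool. FPKM counts the fragments of a gene relative to its length and to the mapped total of the library, so genes can be compared per length. Since each stage has 1 library, no difference has a replicate check, no p-value is given and all values describe these libraries alone.

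The longissimus dorsi is the long muscle beside the spine. As background, skeletal muscle is built of long fibres that differ in how far they rely on mitochondria or on glycolysis. Around the fibres lie vessels, nerve endings, connective tissue cells, fat cells and resident immune cells, and RNA from all of them enters a tissue library. Genes of mitochondrial upkeep supply the proteins, cofactors and lipids that the respiratory chain needs. Early response genes are transcribed within a short time of a stimulus, and their messages decay fast.

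The totals behind the FPKM values, worked out from the steps between values, were 14920689 reads in youth and 18399385 in adult. Each fold or ratio of a single gene with reads in both libraries is followed in brackets by the exact 95% interval that these reads give, while ratios of marker sums carry none. These intervals cover counting error only and compare the libraries, not the stages. Levels are FPKM in the order kid, youth and adult. Skeletal muscle fibre markers summed to 57634 FPKM in youth and 66969 in adult, so markers of the labelled tissue were abundant. The extraction text in the labels names mammary tissue instead, and 4 of 5 mammary markers were listed at 0 in both libraries. Among markers of other cells, those of macrophages summed to 49.4 FPKM in youth and 23.5 in adult, with 4 of 4 lower. Fibroblast markers summed to 852 and 648, T cell markers to 9.06 and 5.06, and mast cell markers to 3.69 and 1.86. Tendon markers stood at 1.43 and 13.9 FPKM and adipocyte markers at 29.96 and 45.6. Endothelial markers, at 140.03 and 135 FPKM, were close in sum, with 2 of 5 higher and 3 lower. In bulk tissue, fewer cells of a type and less RNA per cell cannot be told apart.

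On the scale of log2(FPKM + 1), 655 of the 12121 genes were at least 1.5-fold higher in adult, which is 5.4% of them, and 661 were at least 1.5-fold lower, which is 5.45%. At least 2-fold apart were 122 genes in the higher direction (1.01%) and 130 in the lower direction (1.07%). When each library was brought to the same FPKM sum, the counts at 1.5-fold became 501 higher and 824 lower. By any amount, 47.3% of genes were higher and 52.7% lower, and the median difference over all genes was -0.02 log2 units. These shares are the background against which the counts of each family stand. Fold limits are applied on the log2(FPKM + 1) scale, which understates the difference of low genes, while the folds printed for single genes are direct ratios of FPKM.

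**Figure D1:**
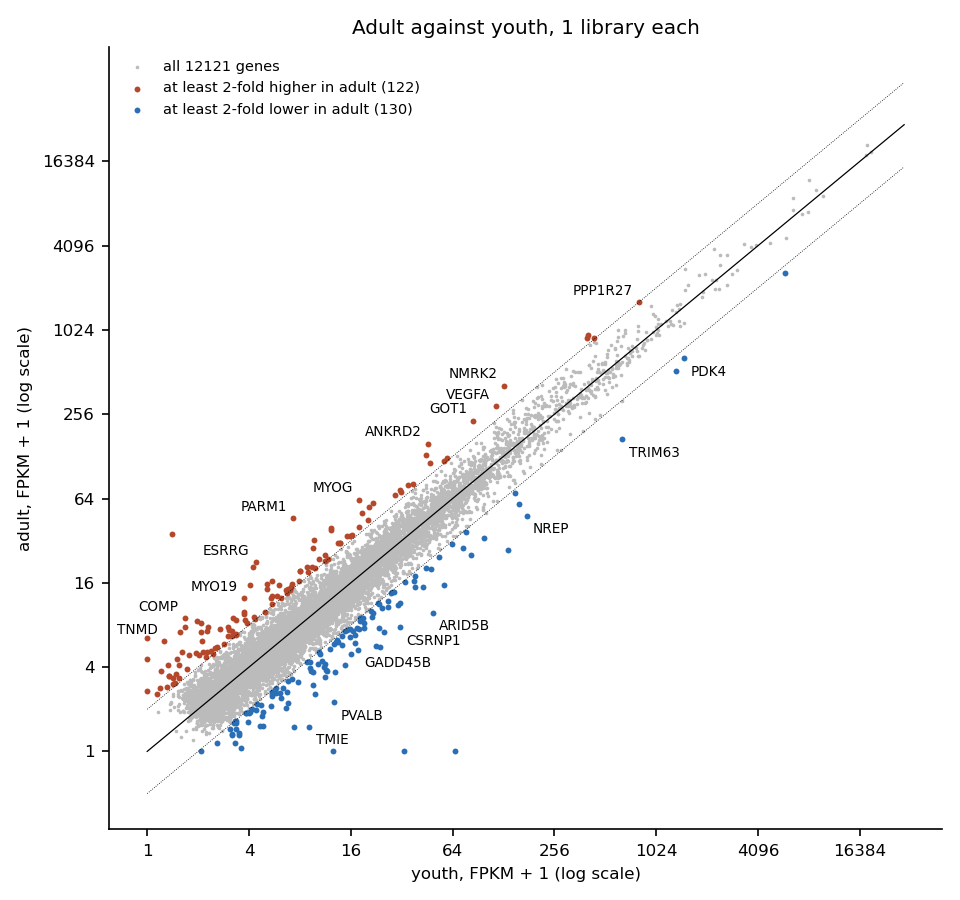
Levels of 12121 genes in youth (x axis) and adult (y axis), as FPKM + 1 on log axes, 1 point a gene. The dotted lines mark 2-fold, beyond which 122 genes lay higher and 130 lower in adult, with PARM1 and ESRRG above the diagonal and TRIM63 and ARID5B under it.

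The balance between the directions depended on the level of the genes. Among the 631 genes with a mean of 100 FPKM or more over adult and youth, 66 were at least 1.5-fold higher in adult (10.5%) and 26 lower (4.12%). Among the 4598 genes under 5 FPKM, 246 were higher and 288 lower. The abundant genes that lay higher included many subunits of the respiratory chain and of ATP synthase. The abundant genes described next belong elsewhere, were picked after their values were seen and all lay higher in adult. The 26 lower ones are not among them. Likewise picked from those 26, PDK4 stood at 1366, 1498 and 642 FPKM and AMPD1 at 478, 641 and 320. HSPB6, a small heat shock protein, stood at 422, 397 and 901 FPKM and was 2.27-fold higher (2.21 to 2.33) in adult than in youth. CRYAB, another small heat shock protein that protects the Z-disc and desmin, stood at 1197, 956 and 1524 and was 1.59-fold higher (1.56 to 1.63). CSRP3, the muscle LIM protein, stood at 552, 448 and 821 and was 1.83-fold higher (1.78 to 1.89). XIRP2, an actin-binding protein of the intercalated disc and Z-disc, stood at 403, 200.5 and 399 and was 1.99-fold higher (1.97 to 2.02). SMPX, a small striated muscle protein, stood at 700.2, 437 and 840.4 and was 1.92-fold higher (1.87 to 1.98). NDRG2, an abundant member of the NDRG family, stood at 257, 216 and 412 and was 1.91-fold higher (1.85 to 1.97). In all 6 of these the youth library was the lowest of the 3. That is usual for genes so chosen. Of the 655 genes at least 1.5-fold higher in adult, kid lay under youth in 65.

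**Figure D2:**
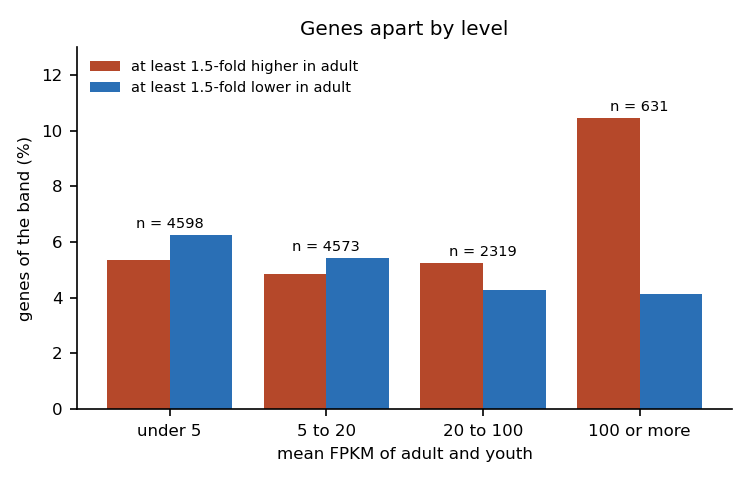
Share of genes (%) at least 1.5-fold higher (red) or lower (blue) in adult than in youth, in 4 bands of the mean FPKM of both libraries, with the number of genes over each pair of bars. The band of 100 FPKM or more had 10.5% higher and 4.12% lower, while in the other bands the shares ran from 4.27% to 6.26%.

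Among genes with product text or a symbol and at least 5 FPKM in youth or adult, the 15 highest and 15 lowest differences were named. The highest was gene 102190429, a 40S ribosomal protein S25-like entry, at 0.257, 0.409 and 34.7 FPKM. It rested on 3 reads in youth and 314 in adult, a ratio of 84.9 (28.8 to 414). Near-identical ribosomal protein copies can share reads, so this entry and the ribosomal protein L17-like gene 102186409, at 6.67, 0.979 and 7.5, are uncertain. PARM1, a mucin-like membrane protein, stood at 12.7, 6.31 and 45.2 FPKM and was 7.17-fold higher (5.78 to 8.98) in adult. ESRRG, an orphan nuclear receptor that binds promoters of oxidative metabolism genes, stood at 12.2, 3.4 and 21.4 and was 6.3-fold higher (5.45 to 7.32). RNASE13, a member of the ribonuclease A family, stood at 0.993, 0.564 and 6.1 and was 10.8-fold higher (6.4 to 19.7). In PARM1 and ESRRG the adult library was the highest of the 3 and youth the lowest. The matrix proteins COMP, at 0.60, 0.667 and 7.96 FPKM, and TNMD, at 1.51, 0.25 and 5.15, are both abundant in tendon and are on the tendon marker list. Tendon markers were 9.73-fold higher in sum in adult, 3 of 3 of them higher, but COMP and TNMD themselves make up most of that sum. The other matched marker, MKX, stood at 0.924, 0.511 and 0.779, a ratio of 1.52 (0.92 to 2.58). The part of tendon tissue in these values was not tested.

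The rest of the highest entries included ion channels and a myogenic factor. KCNN1, a calcium-activated potassium channel, stood at 1.4, 1.07 and 7.31 FPKM and was 6.83-fold higher (4.54 to 10.7) in adult than in youth. KCNC1, a voltage-gated potassium channel of fast repolarisation, stood at 1.38, 1.08 and 6.15 and was 5.68-fold higher (4.2 to 7.82). MYOG, the myogenic factor of muscle differentiation, stood at 19, 17 and 62 and was 3.65-fold higher (3.04 to 4.42). In these 3 genes kid and youth lay close together and adult stood apart. ANKRD2, a stretch-responsive ankyrin repeat protein, stood at 110.1, 44.8 and 157 and was 3.51-fold higher (3.26 to 3.77). F10, coagulation factor X, stood at 4.83, 1.29 and 6.77 and was 5.24-fold higher (3.51 to 8.11). The serum amyloid A3 gene 100860781, an acute phase protein, stood at 8.89, 0.682 and 6.72 FPKM, on 6 reads in youth and 73 in adult. In ANKRD2, F10 and serum amyloid A3, kid lay nearer to adult than youth did.

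Lowest of all stood entries with no read in adult. A class I histocompatibility entry, gene 102177715, was at 44.5, 65.4 and 0 FPKM, with 317 reads in youth and 0 in adult. Against a floor of 3 reads in the adult library it was at least 130-fold lower, and the exact interval, which also takes in the counting error of youth, began at 105-fold. Another class I entry, gene 102184389, went the other way, at 6.58, 3.21 and 19.8 FPKM. Class I genes differ between animals and their reads can be shared between copies, so both entries are uncertain. The uncharacterized entries 102177152 and 102177327 had 23 and 17 reads in youth and 0 in adult, at least 9.45-fold and 6.99-fold lower against that floor, with exact intervals that began at 7.09-fold and 5.09-fold. TMIE, a membrane protein of the inner ear, stood at 1.48, 8.09 and 0.49 FPKM and was 16.5-fold lower (6.74 to 52.5). PVALB, the calcium buffer parvalbumin of fast fibres, stood at 1.33, 11.7 and 1.24 and was 9.49-fold lower (5.3 to 18.4). For TMIE and PVALB the youth library was high, and adult was the lowest, with kid near it for PVALB and between for TMIE.

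Regulators of transcription and turnover followed among the lowest. ARID5B, a DNA-binding protein of chromatin, stood at 54.6, 47.7 and 8.73 FPKM and was 5.47-fold lower (5.14 to 5.83). PFKFB3, which makes the glycolytic activator fructose-2,6-bisphosphate, stood at 74, 135 and 26.4 and was 5.1-fold lower (4.72 to 5.51). CSRNP1, an early response nuclear protein, stood at 32.7, 30.1 and 6.68 and was 4.51-fold lower (4.03 to 5.06). In ARID5B and CSRNP1 kid and youth were close and adult stood apart. NREP, a small protein first described in regenerating nerve, stood at 80.6, 174 and 47.1 and was 3.7-fold lower (3.5 to 3.91). GADD45B, a stress-induced partner of MAP3K4, stood at 11.7, 16.5 and 4.3 and was 3.84-fold lower (2.91 to 5.13). The list also held TRIM63 at 257, 644 and 168, FOXO1 at 54.3, 56.2 and 14.3 and MSTN at 6.1, 8.81 and 1.57, which are known regulators of muscle mass. ISG15, at 4.69, 21.6 and 4.62, and the IFIT1 entry 102168687, at 6.57, 24.3 and 6.14, are interferon-induced, and youth was the highest of the 3 libraries in each.

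Product text and symbol lists gave 154 families, of which 148 had at least 5 members past the filter. The place of the kid library was counted for the genes apart at 1.5-fold. Of the 655 higher in adult, kid lay under youth in 65, above adult in 57 and between them or level in 533. Of the 661 lower in adult, kid lay under adult in 39, above youth in 168 and between them or level in 454. These genes were chosen by their youth and adult values, so the counts are a description. Youth as the lowest library was thus usual for genes higher in adult. For genes lower in adult, youth as the highest library and adult as the lowest were usual too. Remarks on the lowest or highest library of single genes stand against these counts and mark nothing particular to a family. The families whose median stood farthest above that of all genes were mostly of mitochondria, cofactors and lipids, with the small carbonic anhydrase family among them. Those farthest under it served early responses, G protein and guidance signalling, chemokines and complement. In the plot of family medians, 18 families lay at least 0.15 log2 units above the median of all genes and 26 at least as far under it. A gene can belong to more than 1 family.

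**Figure D3:**
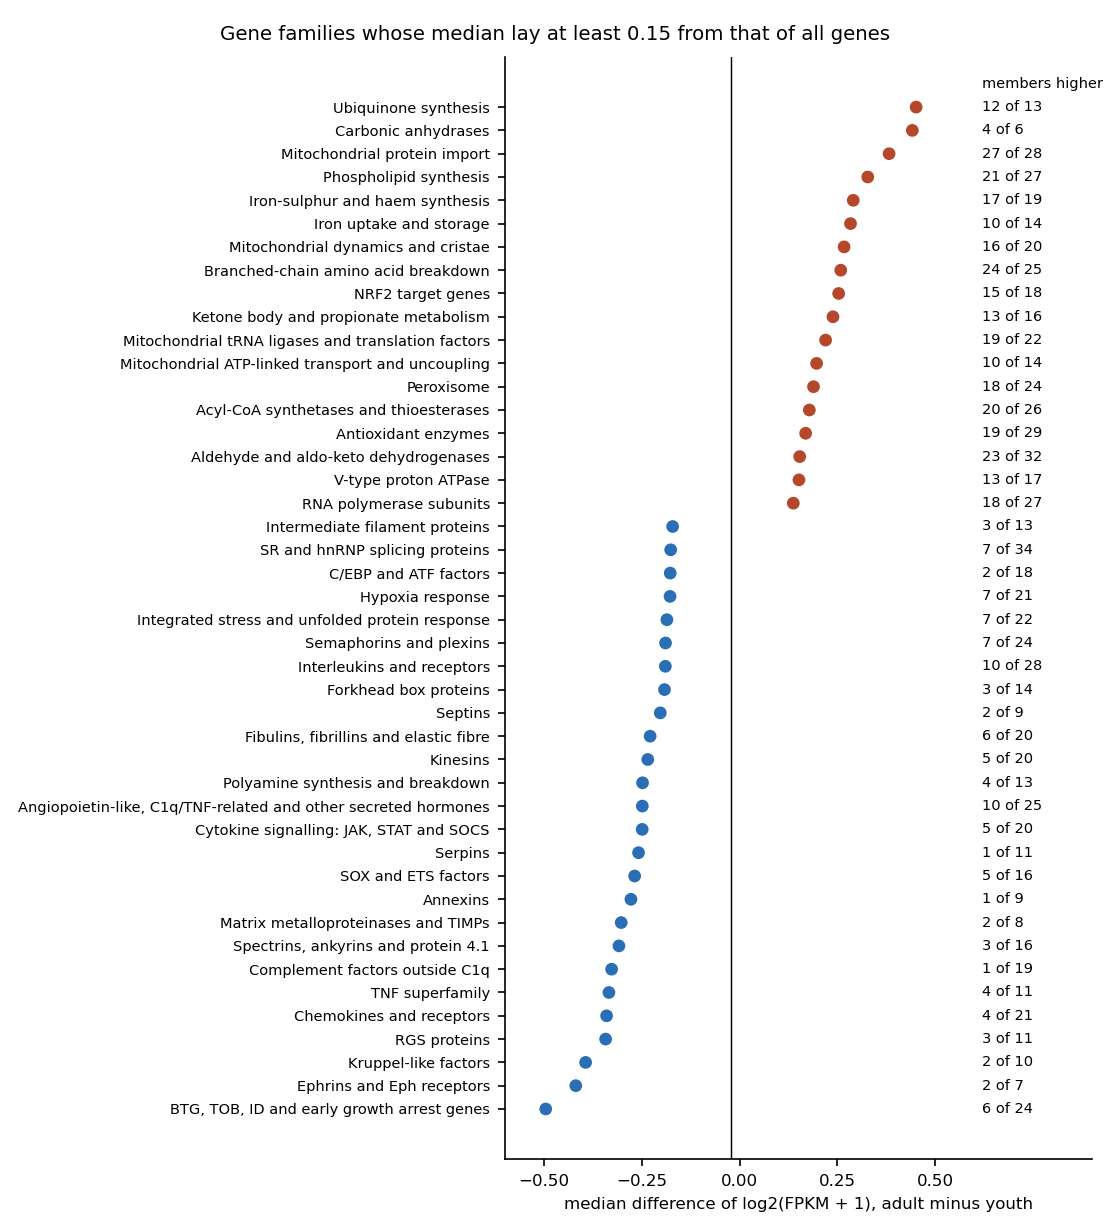
Median difference of log2(FPKM + 1), adult minus youth, of the families at least 0.15 from the median of all genes (vertical line), 1 point a family. The numbers at the right count the members that were higher in adult. Ubiquinone synthesis stood highest at 0.45 and the early growth arrest genes lowest at -0.49.

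Ubiquinone, or coenzyme Q, is the lipid that carries electrons between complexes of the inner mitochondrial membrane. Of its 13 synthesis and binding genes past the filter, out of 13 in the table, 12 were higher in adult and 5 at least 1.5-fold so, with a median difference of 0.45. COQ8A, an atypical kinase required for synthesis, stood at 241, 163 and 323 FPKM and was 1.98-fold higher (1.92 to 2.03) in adult than in youth. COQ7, the hydroxylase of a late ring step, stood at 21.2, 19.5 and 34.5 and was 1.77-fold higher (1.52 to 2.07). COQ6, a ring monooxygenase, stood at 17, 14.1 and 24.8 and was 1.76-fold higher (1.55 to 1.99). Youth was the lowest of the 3 libraries in each of them. The 1 member lower in adult was COQ10B, at 8.8, 5.95 and 4.16, while its relative COQ10A stood at 184, 178 and 280.5. Together the members summed to 691, 573 and 923 FPKM.

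Mitochondrial protein import brings proteins made in the cytosol through the TOM and TIM channels. In this family 27 of 28 members were higher in adult, 5 of them at least 1.5-fold and none that far lower. TIMM17A, a subunit of the inner membrane channel, stood at 39.8, 35.3 and 57.3 FPKM and was 1.62-fold higher (1.46 to 1.8). TOMM20, an outer membrane receptor for presequences, stood at 119, 112 and 171 and was 1.53-fold higher (1.45 to 1.6). The most abundant member, TOMM7, stood at 159, 172 and 195, a ratio of 1.13 (1.04 to 1.23). The summed level was 1166, 1113 and 1461 FPKM. GRPEL2, a nucleotide exchange factor of the import motor, was the 1 member lower in adult, at 4.42, 4.71 and 4.1.

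Iron-sulphur clusters and haem are cofactors of the respiratory chain that are built largely in mitochondria. Here 17 of 19 genes were higher in adult, 4 at least 1.5-fold. GLRX5, which hands clusters on, stood at 31, 24.9 and 44.1 FPKM and was 1.77-fold higher (1.54 to 2.03). LYRM4, a partner of the desulphurase, stood at 8.29, 5.46 and 10.2 and was 1.87-fold higher (1.33 to 2.67). ISCU, the scaffold on which clusters form, stood at 160.3, 142 and 217 and was 1.53-fold higher (1.45 to 1.62). Youth was the lowest library for all 3. ALAS1, the first enzyme of haem synthesis, was one of 2 members lower in adult, at 34, 49.7 and 44.6. Among 14 genes of iron uptake and storage, 10 were higher, led by the transferrin receptor TFRC at 47.1, 40.6 and 63.7, which was 1.57-fold higher (1.5 to 1.64). The ferritin heavy chain FTH1, which stores iron, stood at 1745, 1569 and 2134 and was 1.36-fold higher (1.34 to 1.38).

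Genes that shape mitochondria gave a wider spread. Of 20 genes of fission, fusion and cristae, 16 were higher in adult and the differences ran from -0.94 to 1.56 log2 units. MTFP1, an inner membrane protein of fission, stood at 14.3, 8.59 and 27.3 FPKM and was 3.18-fold higher (2.51 to 4.06). MIEF1, which recruits the fission dynamin to the outer membrane, stood at 7.61, 5.72 and 12.5 and was 2.19-fold higher (1.88 to 2.55). IMMT, the mitofilin that holds cristae junctions, stood at 45.1, 37.3 and 68.8 and was 1.84-fold higher (1.73 to 1.96). Again youth was the lowest library for each. MTFR1, named a fission regulator, went the other way, at 7.85, 8.93 and 4.19 and 2.13-fold lower (1.78 to 2.55). The main fusion proteins MFN1, at 53.1, 53.3 and 48.9, MFN2, at 84.7, 84.1 and 97.3, and OPA1, at 20.2, 17.9 and 18, lay within 1.5-fold.

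Mitochondria have their own tRNA ligases and translation factors, and 19 of 22 of these were higher in adult, none by 1.5-fold. TUFM, the elongation factor, was the most abundant at 59.7, 57 and 77.2 FPKM, a ratio of 1.36 (1.27 to 1.45). Their cytosolic counterparts were near the background, with 13 of 25 higher, and KARS, the lysine ligase, stood at 103, 97.1 and 89.2. The genes of mitochondrial DNA upkeep and transcription had 10 of 15 higher, with a median of 0.07. Whether the mitochondrial and cytosolic sets differ was not tested.

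Several mitochondrial proteins were found in families named for another trait. The genes of this paragraph were named as highest members past 1.5-fold, so their direction follows from the naming rule. Other mitochondrial members of those families were not counted. MYO19, a myosin that binds the outer mitochondrial membrane, had the highest difference of the unconventional myosins, at 6.1, 2.73 and 11.5 FPKM, and was 4.23-fold higher (3.52 to 5.11) in adult. PPIF, the cyclophilin of the mitochondrial matrix, had the highest difference of the peptidyl-prolyl isomerases, at 13.9, 8.63 and 31.3, and was 3.63-fold higher (2.9 to 4.59). AKAP1, which anchors protein kinase A to mitochondria, was the 1 member of the kinase A group at least 1.5-fold higher, at 33.9, 33.7 and 59 and 1.75-fold higher (1.64 to 1.86). Youth was the lowest of the 3 libraries in each of these genes, though for AKAP1 it was level with kid. MIGA2, an outer membrane protein that promotes fusion, stood at 12.1, 9.16 and 17.2 and was 1.88-fold higher (1.61 to 2.21) among the genes named FAM. SIRT4, a mitochondrial sirtuin, stood at 2.47, 1.08 and 2.36 and was 2.19-fold higher (1.34 to 3.7). ABCB8, a transporter of the inner membrane, stood at 3.94, 3.31 and 6.55 and was 1.98-fold higher (1.66 to 2.38).

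Carriers and uncouplers of mitochondria had 10 of 14 members higher, 2 at least 1.5-fold higher and 1 lower. UCP3, the uncoupling protein of muscle, stood at 84.3, 67.2 and 127 FPKM and was 1.89-fold higher (1.8 to 1.99). MPC2, a subunit of the pyruvate carrier, stood at 163, 146 and 223 and was 1.53-fold higher (1.43 to 1.64). MCUB, which damps the calcium uniporter, stood at 1.93, 2.22 and 1.04 and was 2.13-fold lower (1.23 to 3.78). UCP3 and MPC2 were lowest in youth, the library highest for MCUB. The porin VDAC1, the most abundant of the 14, stood at 382, 384 and 421, a ratio of 1.09 (1.07 to 1.12).

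**Figure D4:**
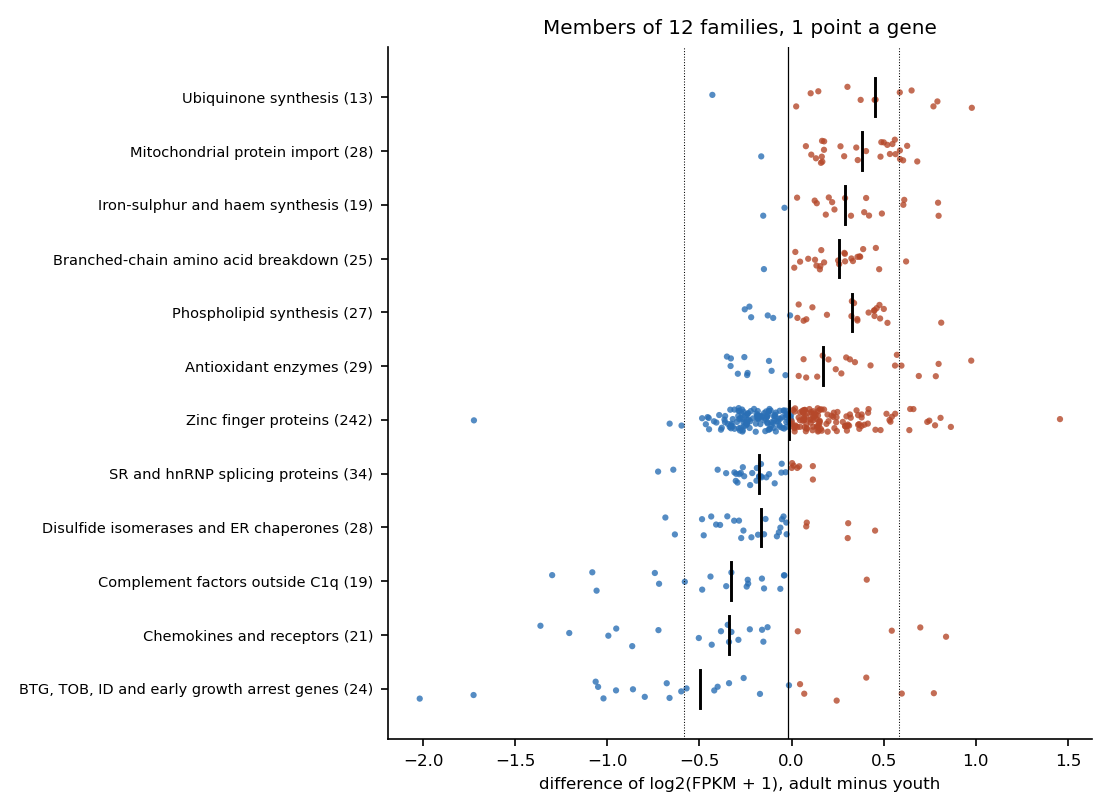
Difference of log2(FPKM + 1), adult minus youth, for every member past the filter of 12 families, 1 point a gene, with the family median as a black bar and dotted lines at 1.5-fold. Nearly all points of ubiquinone synthesis and mitochondrial import lie right of 0, those of complement lie left of it, and the 242 zinc finger proteins spread evenly.

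NAD and amino acid metabolism held some of the largest shifts among abundant genes. NMRK2, the nicotinamide riboside kinase of muscle that feeds NAD synthesis, stood at 216, 128 and 409.99 FPKM and was 3.2-fold higher (3.03 to 3.38). NNT, the transhydrogenase that makes NADPH in mitochondria, stood at 102, 84 and 129 and was 1.54-fold higher (1.49 to 1.59). Of the ADP-ribosyltransferase family, PARP9 stood at 4.0, 4.32 and 2.11 and was 2.05-fold lower (1.6 to 2.64), and PARP14 stood at 3.25, 5.19 and 2.83 and was 1.83-fold lower (1.58 to 2.12). In NMRK2 and NNT youth was the lowest library, and in PARP9 and PARP14 the highest. NAD genes as a list were even, with 10 of 20 higher. GOT1, the cytosolic aspartate transaminase of the malate-aspartate shuttle, stood at 125, 84.1 and 229.8 and was 2.73-fold higher (2.61 to 2.86). GLUL, glutamine synthetase, stood at 392, 443 and 235 and was 1.88-fold lower (1.84 to 1.93). The nitric oxide synthases, which use arginine, went in opposite directions. NOS1, the form of fibres and neurons, stood at 14.7, 10.6 and 21.7 and was 2.05-fold higher (1.88 to 2.24), and NOS3, the endothelial form, stood at 4.48, 11.8 and 4.9 and was 2.4-fold lower (2.07 to 2.79).

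Breakdown of the branched-chain amino acids leucine, isoleucine and valine takes place mostly in mitochondria and is active in muscle. Here 24 of 25 genes were higher in adult, with a median of 0.26. BCKDHA, of the rate-setting dehydrogenase complex, stood at 30.7, 25.7 and 30.8, and its kinase BCKDK at 16.5, 13.7 and 17.4. The exception was OXCT1, which activates ketone bodies, at 71.5, 77 and 69.3. Polyamine genes leaned the other way, with 9 of 13 lower, none by 1.5-fold. ODC1, the first enzyme of that pathway, stood at 23.2, 34.5 and 25.4, and SAT1, which acetylates polyamines, at 71.8, 62.6 and 45.1.

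Phospholipid synthesis had 21 of 27 genes higher in adult and a median of 0.33, although only choline kinase CHKA, at 3.58, 3.01 and 6.04 FPKM, passed 1.5-fold, being 2.01-fold higher (1.48 to 2.75). LPIN1, which makes diacylglycerol from phosphatidate, stood at 47.5, 60.5 and 83.1, and CRLS1, which makes the mitochondrial lipid cardiolipin, at 13.9, 10.9 and 16. Acyl-CoA synthetases and thioesterases had 20 of 26 higher. ACSL1, which activates long-chain fatty acids, stood at 93.6, 80.04 and 141 and was 1.76-fold higher (1.7 to 1.82). ACSM3, a medium-chain synthetase, stood at 6.65, 5.64 and 11.4 and was 2.02-fold higher (1.7 to 2.41). For CHKA, ACSL1 and ACSM3 youth was the lowest library. Peroxisomal genes had 18 of 24 higher, led by the assembly factor PEX2 at 8.14, 6.77 and 12.3, which was 1.81-fold higher (1.52 to 2.18). Ketone body and propionate genes had 13 of 16 higher, and the most abundant, ACAT1, an acetoacetyl-CoA thiolase, stood at 236, 252 and 261, a ratio of 1.03 (1.0 to 1.07).

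Lipases were mixed as a family, with 24 of 44 higher. PNPLA2, the adipose triglyceride lipase, stood at 101, 70.9 and 112 FPKM and was 1.58-fold higher (1.48 to 1.69). LIPE, the hormone-sensitive lipase, stood at 10.5, 4.67 and 9.34 and was 2.0-fold higher (1.65 to 2.42). NAPEPLD, a phospholipase D that releases N-acylethanolamines, stood at 7.57, 7.0 and 18.4 and was 2.62-fold higher (2.23 to 3.11). Adipocyte markers were 1.52-fold higher in sum in adult, with 4 of 4 higher, though the interval of LEP included 1. ADIPOQ, at 64.3, 24.3 and 32.4 FPKM, made up most of that sum. The part of adipocytes in these values was not tested. LPL, the lipoprotein lipase, stood at 103, 96.7 and 91. PNPLA2, LIPE and NAPEPLD were lowest in youth, and LPL was not. Cholesterol genes and sphingolipid genes had 13 of 23 higher and 9 of 26 higher, respectively.

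Genes that remove oxidants leaned higher. Antioxidant enzymes had 19 of 29 members higher in adult, 5 of them at least 1.5-fold against none lower. PRDX2, a cytosolic peroxiredoxin, stood at 142, 112 and 221 FPKM and was 1.97-fold higher (1.85 to 2.11). GSR, which regenerates glutathione, stood at 9.38, 7.26 and 12.3 and was 1.7-fold higher (1.44 to 2.0). GPX4, which reduces lipid peroxides, stood at 138, 146 and 218, while GPX1, at 65.2, 70.5 and 57.4, and SOD1, at 147, 158 and 145, were a little lower in adult. The named glutathione and peroxiredoxin genes thus did not all lie on 1 side. Target genes of the stress factor NRF2 had 15 of 18 higher. SRXN1, which repairs peroxiredoxins, stood at 2.55, 3.23 and 6.66 and was 2.06-fold higher (1.64 to 2.61). HMOX1, haem oxygenase, stood at 51.5, 34 and 51.4, and OSGIN1, at 3.7, 5.77 and 3.41, was the 1 NRF2 target at least 1.5-fold lower. MSRB1, which reduces oxidised methionine, stood at 29.9, 26.6 and 51.4 and was 1.93-fold higher (1.74 to 2.15).

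Among 32 aldehyde, aldo-keto and short-chain dehydrogenases, 23 were higher and 7 passed 1.5-fold in that direction against none in the other. RDH13, a retinol dehydrogenase of mitochondria, stood at 2.46, 1.45 and 4.0 FPKM and was 2.76-fold higher (1.75 to 4.5). DHRS7B stood at 9.48, 10.2 and 21.9 and was 2.15-fold higher (1.81 to 2.55). ALDH4A1, of proline breakdown, stood at 8.86, 7.31 and 13.4 and was 1.84-fold higher (1.61 to 2.11). DHRS7B differed from the other 2 in that kid, not youth, was its lowest library. DHRS7C, the most abundant member and a protein of the sarcoplasmic reticulum, stood at 352, 431 and 351, with a ratio of 0.81 (0.79 to 0.84). TIGAR, a phosphatase that lowers fructose-2,6-bisphosphate, stood at 7.34, 7.87 and 19.8 and was 2.52-fold higher (2.25 to 2.83), opposite to PFKFB3, which makes that compound.

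Membrane transporters outside the mitochondrial carriers split evenly, with 76 of 143 higher, 12 at least 1.5-fold higher and 10 lower. SLC2A4, the insulin-responsive glucose transporter, stood at 87.5, 46.3 and 113 FPKM and was 2.44-fold higher (2.31 to 2.58). SLC16A3, a lactate exporter, stood at 30.9, 30.2 and 72.5 and was 2.4-fold higher (2.24 to 2.57), and SLC16A1, a lactate and ketone carrier, stood at 47.2, 39.5 and 63 and was 1.59-fold higher (1.51 to 1.69). Their relative SLC16A6 went the other way, at 5.59, 10.2 and 3.19 and 3.21-fold lower (2.55 to 4.07). SLC7A2, a carrier of arginine and lysine, stood at 13.3, 18.1 and 6.55 and was 2.76-fold lower (2.54 to 3.0). SLC20A1, a phosphate carrier, stood at 21.4, 25.5 and 9.81 and was 2.6-fold lower (2.35 to 2.87). For all 3 of these lower carriers youth was the highest library. SLC31A1, the copper importer, stood at 4.59, 3.26 and 7.0 and was 2.15-fold higher (1.81 to 2.56).

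Carbonic anhydrases, which interconvert carbon dioxide and bicarbonate, had 4 of 6 members higher and a median of 0.44. CA14, a membrane form, stood at 35.1, 24.3 and 43 FPKM and was 1.77-fold higher (1.63 to 1.92). The carbonic anhydrase II entry, gene 102174762, stood at 20.6, 19.2 and 34.9 and was 1.81-fold higher (1.63 to 2.02). CA4, a form bound to the cell surface, stood at 12.5, 20.4 and 8.12 and was 2.52-fold lower (2.16 to 2.94). CA3, the abundant form of muscle cytosol, stood at 692, 1205 and 1101, with a ratio of 0.91 (0.90 to 0.93).

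Complement genes stood lower in adult. Of 19 complement genes outside C1q, 18 were lower and 5 at least 1.5-fold so, with a median of -0.33. CFD, the protease adipsin of the alternative pathway, stood at 5.46, 8.25 and 2.76 FPKM and was 2.99-fold lower (2.11 to 4.3). C3, the central component, listed as component 3d, stood at 29.5, 27.8 and 12.8 and was 2.17-fold lower (1.91 to 2.46), and a further C3 entry, gene 102188033, at 20.2, 20.2 and 9.0, was 2.24-fold lower (2.03 to 2.47). For both C3 entries kid and youth were level and adult stood apart. C5AR1, a receptor on myeloid cells, stood at 2.53, 2.49 and 1.09. CD59, which shields cells from complement, was the most abundant and stood at 77.6, 83.6 and 74.7, a ratio of 0.89 (0.84 to 0.95). The C4 entries, 4 in all and all lower, name near-identical copies and are uncertain singly. The macrophage markers were 2.1-fold lower in sum and the fibroblast markers 1.31-fold lower, and their part in these values was not tested.

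Chemokines and their receptors had 17 of 21 members lower, 6 at least 1.5-fold lower and 2 higher. CCL21, which guides lymphocytes, stood at 19.7, 18.2 and 7.32 FPKM and was 2.49-fold lower (1.99 to 3.12). The CCL2 entry, gene 102175889, a monocyte attractant, stood at 3.0, 3.36 and 1.19 and was 2.83-fold lower (1.56 to 5.33). CCL26, an eosinophil attractant, stood at 9.63, 5.93 and 10.3 and was 1.73-fold higher (1.27 to 2.38). Interleukins and their receptors had 18 of 28 lower. IL33, an alarm signal of stromal nuclei, stood at 12.7, 6.27 and 11.9 and was 1.89-fold higher (1.63 to 2.2), and IL11RA, a receptor of stromal cells, stood at 23.1, 19.4 and 30.7 and was 1.59-fold higher (1.43 to 1.77). CCL26, IL33 and IL11RA were lowest in youth. The IL2 receptor beta entry, gene 102177599, of lymphocytes, stood at 3.1, 5.76 and 1.66 and was 3.47-fold lower (2.62 to 4.63). T cell markers were lower in adult in 5 of 5 cases, though the intervals of CD2 and CD3D included 1. The part of T cells in these values was not tested.

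Downstream of cytokine receptors, 15 of 20 genes of the JAK, STAT and SOCS families were lower. CISH, a feedback inhibitor induced by STAT5, stood at 29.99, 73.2 and 27.5 FPKM and was 2.66-fold lower (2.46 to 2.88), with kid and adult alike and youth high. SOCS2, a feedback inhibitor of growth hormone signalling, stood at 4.3, 5.98 and 3.42 and was 1.75-fold lower (1.38 to 2.22). SOCS3, induced by STAT3, stood at 5.34, 3.36 and 1.87 and was 1.79-fold lower (1.01 to 3.24). Adult was the lowest library for all 3. In the TNF superfamily 7 of 11 were lower, while its most abundant member, TNFRSF12A, stood at 127, 142 and 156, a ratio of 1.1 (0.99 to 1.22).

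Growth factor and guidance receptors varied. VEGFA, the main growth factor of vessels, stood at 120.3, 115 and 291 FPKM and was 2.52-fold higher (2.44 to 2.61). The endothelial markers were close in sum only, with 2 of 5 higher in adult and 3 lower. MET, the receptor of hepatocyte growth factor, stood at 7.67, 15.5 and 6.29 and was 2.46-fold lower (2.23 to 2.71). Ephrins and their receptors had 5 of 7 lower. EPHB4, a receptor of venous endothelium, stood at 9.02, 13 and 6.66 and was 1.94-fold lower (1.7 to 2.23), and EFNA4 stood at 7.35, 16.4 and 8.19 and was 2.0-fold lower (1.68 to 2.38). Youth was the highest library for MET, EPHB4 and EFNA4. Receptor kinases with their adaptors had 26 of 37 lower. In the TGF-beta and BMP pathway 29 of 46 were lower, among them SMAD3, a signal carrier, at 20.3, 18.4 and 9.71, which was 1.89-fold lower (1.66 to 2.16). CHRDL2, a BMP antagonist, stood at 6.7, 2.81 and 7.73 and was 2.75-fold higher (2.11 to 3.63).

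Protease inhibitors and matrix regulators leaned lower. Of 11 serpins, 10 were lower, led in level by SERPINH1, the collagen chaperone, at 48.9, 67.2 and 40.3 FPKM and 1.67-fold lower (1.53 to 1.81). TIMP3, a matrix-bound inhibitor of metalloproteinases, stood at 100.3, 103 and 65.5 and was 1.56-fold lower (1.51 to 1.62). Adult was the lowest library for both. FBLN5, an organiser of elastic fibres, stood at 29.7, 28.2 and 18.4 and was 1.53-fold lower (1.34 to 1.75). Annexins, which bind membranes in a calcium-dependent way, had 8 of 9 lower, none by 1.5-fold, and ANXA2 stood at 100.05, 119 and 95. POSTN, periostin, was at 0.559, 2.16 and 0.326 and was 6.62-fold lower (4.03 to 11.4). It passed the filter only through its youth level, and kid and adult were under 1 FPKM. The tenascin TNC stood at 4.26, 3.25 and 6.24 and was 1.92-fold higher (1.69 to 2.19). All 5 fibroblast markers were lower in adult, and their part was not tested.

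The family farthest under the median of all genes gathers early response and growth arrest genes, many of which brake the cell cycle or decay messages. Of 24 members, 18 were lower and 11 at least 1.5-fold lower, against 2 higher. BTG2, an anti-proliferative protein, stood at 46.4, 26.5 and 12.6 FPKM and was 2.11-fold lower (1.75 to 2.56). ID1, which blocks myogenic helix-loop-helix factors, stood at 85, 66.1 and 33.7 and was 1.96-fold lower (1.74 to 2.22), and ID3 stood at 40.4, 35.8 and 19.3 and was 1.86-fold lower (1.6 to 2.17). For BTG2, ID1 and ID3 kid was the highest library and adult the lowest. ZFP36, which speeds decay of messages, stood at 78.8, 72 and 45.1. The GADD45 genes parted: GADD45G, at 27.7, 32.7 and 15.3, was 2.14-fold lower (1.71 to 2.69), and GADD45A, at 13.6, 16 and 24.8, was 1.55-fold higher (1.28 to 1.87). TOB2 stood at 50.2, 41.8 and 72.2 and was 1.73-fold higher (1.65 to 1.81), against TOB1 at 125, 158 and 119.8. MYC, a growth-promoting factor, stood at 23.3, 16.1 and 5.77 and was 2.78-fold lower (2.3 to 3.38).

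Other transcription factor families were smaller in their shifts. Krueppel-like factors had 8 of 10 lower. KLF10, induced by TGF-beta, stood at 43.8, 62.4 and 29.4 FPKM and was 2.13-fold lower (1.99 to 2.27), and KLF3, a repressor, stood at 12.2, 15.9 and 7.86 and was 2.03-fold lower (1.8 to 2.29). Youth was the highest library for both. KLF11, a relative of KLF10, stood at 27.4, 25.4 and 30.2, a ratio of 1.19 (1.07 to 1.33). The C/EBP and ATF factors had 16 of 18 lower. ATF3, a stress-induced repressor, stood at 188, 149.6 and 69.2 and was 2.16-fold lower (2.06 to 2.27). CREM, a modulator of cAMP-driven transcription, stood at 219, 279.98 and 141 and was 1.99-fold lower (1.9 to 2.08). ATF4, the most abundant and the main factor of the integrated stress response, stood at 399.8, 467 and 511, a ratio of 1.09 (1.06 to 1.12).

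The largest DNA-binding family was near the background. Of 242 zinc finger proteins, 115 were higher and 127 lower, with a median of -0.01. ZNF385B stood at 1.68, 10.2 and 2.39 FPKM and was 4.27-fold lower (3.45 to 5.32), and ZNF48 stood at 2.45, 1.71 and 6.43 and was 3.77-fold higher (2.87 to 5.0). ZBTB16, a repressor known to be induced by glucocorticoids, stood at 65.5, 97.1 and 57.6 and was 1.69-fold lower (1.6 to 1.78). Homeobox genes had 29 of 59 higher. HOXC10, a position gene of the hind body, stood at 13.6, 8.31 and 16.2 and was 1.95-fold higher (1.67 to 2.3), and the SIX2 entry, gene 102179955, stood at 7.48, 5.74 and 11.7. Youth was the lowest library for HOXC10 and SIX2. Among chromatin proteins, the demethylase relative JMJD1C stood at 14.6, 17.1 and 7.54 and was 2.28-fold lower (2.12 to 2.45). HDAC9, a deacetylase that restrains MEF2, stood at 4.66, 4.76 and 1.86 and was 2.57-fold lower (2.09 to 3.17). SMARCD3, a muscle subunit of SWI/SNF, stood at 179, 155 and 239 and was 1.54-fold higher (1.48 to 1.61).

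Signalling enzymes gave few family-wide shifts and some large single ones. RCAN1, an inhibitor and target of calcineurin, stood at 170.3, 158 and 57.3 FPKM and was 2.75-fold lower (2.62 to 2.89). CALM2, a calmodulin gene, stood at 205, 264 and 142 and was 1.87-fold lower (1.78 to 1.95). PDE7A, which breaks down cAMP, stood at 36.2, 29.3 and 10.03 and was 2.92-fold lower (2.65 to 3.23). SIK1, a kinase induced by cAMP, stood at 42.2, 30.5 and 10.4 and was 2.92-fold lower (2.69 to 3.18). In RCAN1, PDE7A and SIK1 kid was the highest library and adult the lowest. AKAP12, a scaffold at the plasma membrane, stood at 12.1, 22.5 and 10.2 and was 2.19-fold lower (2.06 to 2.34). The AMP-activated kinase subunits went apart, PRKAG2 at 15.4, 11.3 and 19.98, which was 1.77-fold higher (1.58 to 2.0), and PRKAG3, the form of glycolytic fibres, at 23.3, 33.4 and 17.4, which was 1.91-fold lower (1.77 to 2.07).

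Phosphatase and lipid kinase genes added others. PPP1R27, a phosphatase 1 subunit that binds dysferlin, stood at 737, 812 and 1628 FPKM and was 2.01-fold higher (1.96 to 2.05). Most of the difference in the summed level of phosphatase 1 subunits was its own, the sum being 2702 in youth and 3651 in adult. PIK3R1, the regulatory subunit of the kinase that insulin activates, stood at 56.1, 70.1 and 36.1 and was 1.94-fold lower (1.81 to 2.09). INPP4B, a lipid phosphatase, stood at 9.54, 5.59 and 13.1 and was 2.35-fold higher (2.06 to 2.69). PIK3R1 was highest and INPP4B lowest in youth. TBC1D4, which holds glucose transporter vesicles back, stood at 21.1, 26.6 and 14.5 and was 1.83-fold lower (1.69 to 1.99). Rab GTPases had 19 of 39 higher and none 1.5-fold apart, and Arf family proteins 15 of 31.

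Further receptor and kinase families varied. Of 50 G protein-coupled receptors, 5 were at least 1.5-fold higher and 7 lower. GPR4, a proton-sensing receptor of endothelium, stood at 1.84, 3.0 and 0.896 FPKM and was 3.35-fold lower (2.25 to 5.08), and LPAR3, a receptor of lysophosphatidic acid, stood at 10.2, 7.88 and 16 and was 2.03-fold higher (1.63 to 2.55). RGS proteins, which switch G proteins off, had 8 of 11 lower and a median of -0.34, while the most abundant, RGS5 of pericytes, stood at 80.9, 78.7 and 97.8, a ratio of 1.24 (1.2 to 1.29). In the MAP kinase cascade 4 of 40 were at least 1.5-fold higher and 1 lower. MAP2K3, which activates p38, stood at 46.6, 50.5 and 82.8 and was 1.64-fold higher (1.54 to 1.75). MAPKAPK2, a kinase that p38 activates, stood at 74, 65.3 and 101 and was 1.55-fold higher (1.46 to 1.65). Both were named as members at least 1.5-fold higher, so their direction follows from the naming rule. The cascade as a whole was even, with 21 of 40 higher and a median of 0.01. With equal FPKM sums 42.5% of its members were higher. Tyrosine phosphatases had 22 of 31 lower, among them PTPN12 at 10.3, 13.6 and 6.96, which was 1.95-fold lower (1.72 to 2.22). PTPRC, the leucocyte marker CD45, stood at 4.6, 4.94 and 2.68 and was 1.84-fold lower (1.44 to 2.36), beside the lower macrophage and T cell marker sums.

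Wnt and secreted hormone genes had no common direction. Of 31 Wnt genes, 19 were lower by any amount, although 51.6% were higher under median-of-ratios, upper-quartile or quantile scaling. At 1.5-fold, 4 were higher and 1 lower. WNT11, a ligand, stood at 6.49, 5.53 and 9.3 FPKM and was 1.68-fold higher (1.36 to 2.08), and FZD7, a receptor, stood at 5.44, 6.85 and 11.4 and was 1.67-fold higher (1.42 to 1.97). LRP4, the agrin receptor of the neuromuscular junction, stood at 4.76, 3.2 and 1.73 and was 1.85-fold lower (1.53 to 2.24). The acetylcholine receptor subunit CHRNA1 stood at 9.38, 4.44 and 2.06 and was 2.16-fold lower (1.52 to 3.1). For both of these genes adult was the lowest library. The list of denervation and motor nerve signals, which holds CHRNA1, had 10 of 16 higher and a median of 0.10. ANGPTL4, an inhibitor of lipoprotein lipase, stood at 20.04, 31.1 and 47.9 and was 1.54-fold higher (1.41 to 1.68). ANGPTL1 stood at 19.7, 22.4 and 11.2 and was 2.0-fold lower (1.8 to 2.24). The group of angiopoietin-like, C1q-related and other hormones had 15 of 25 lower. Semaphorins and plexins, which guide axons and vessels, had 17 of 24 lower, with SEMA4B the 1 member past 1.5-fold, at 2.34, 1.46 and 3.22 and 2.21-fold higher (1.68 to 2.93).

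Of 48 cell cycle genes, 30 were lower, and 37.5% were higher against 47.3% over all genes. At 1.5-fold only 1 was higher (2.08%) and 2 lower (4.17%), under the 5.4% and 5.45% of all genes. CCND1, the cyclin of G1 entry, stood at 4.04, 4.53 and 1.78 FPKM and was 2.54-fold lower (1.99 to 3.26), and CDK6, its kinase partner, stood at 1.76, 2.04 and 0.972 and was 2.1-fold lower (1.35 to 3.31). CDK18 stood at 1.98, 0.753 and 2.09 and was 2.77-fold higher (1.64 to 4.9). The stress response list had 15 of 22 lower and 5 at least 1.5-fold so. DDIT4, a stress-induced inhibitor of mTORC1, stood at 145, 147 and 85.3 and was 1.72-fold lower (1.64 to 1.81). Hypoxia response genes had 14 of 21 lower. P4HA1, a prolyl hydroxylase of collagen that hypoxia induces, stood at 19.1, 28.7 and 16.8 and was 1.7-fold lower (1.57 to 1.85). VEGFA, a known hypoxia target that this list does not hold, was higher, as given above. HILPDA, a lipid droplet protein that hypoxia induces, stood at 6.23, 3.76 and 6.24 and was 1.66-fold higher (1.22 to 2.29).

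**Figure D5:**
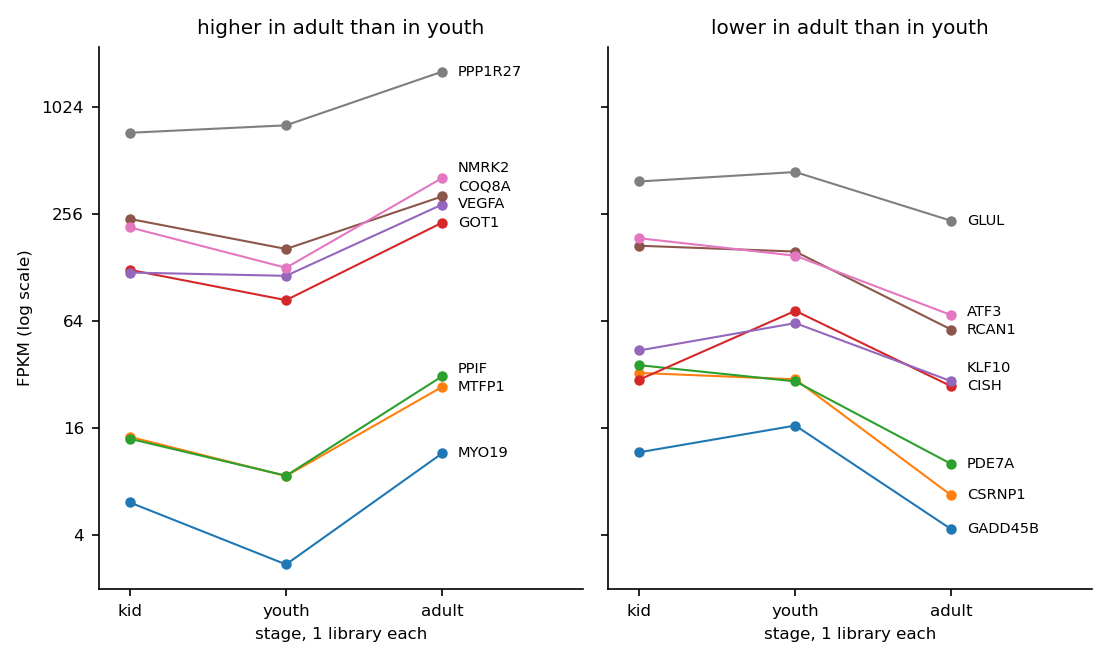
FPKM (log scale) of 16 named genes in the kid, youth and adult libraries, 1 point a library, joined for each gene. In the left panel 7 of 8 genes have their lowest value in youth, PPP1R27 being the exception. In the right panel adult is the lowest library for all 8. Both are usual for genes so chosen. Kid lay under youth in 65 of the 655 genes at least 1.5-fold higher in adult. It lay under adult in 39 of the 661 at least 1.5-fold lower.

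Among RNA families, SR and hnRNP proteins, which set splice site choice, had 27 of 34 lower, with differences from -0.72 to 0.12. SRSF3 stood at 77.3, 87.7 and 52.7 FPKM and was 1.66-fold lower (1.57 to 1.76), and SRSF5 stood at 86.2, 79.2 and 50.4 and was 1.57-fold lower (1.47 to 1.68). HNRNPA2B1, the most abundant, stood at 341, 346 and 303, a ratio of 0.88 (0.85 to 0.91). The lean was thus present in most members, and 2 of the 34 were at least 1.5-fold lower. The core snRNP and Sm proteins were near the background, with 8 of 18 higher and none past 1.5-fold. RBM38, an RNA-binding target of p53, stood at 157, 144 and 275 and was 1.91-fold higher (1.77 to 2.06). EIF2AK2, the interferon-induced kinase PKR, stood at 6.74, 12.4 and 5.06 and was 2.46-fold lower (2.03 to 2.98). Ribosome assembly genes had 29 of 49 higher, led by the nucleophosmin relative NPM3 at 7.78, 5.01 and 14.3, which was 2.86-fold higher (2.16 to 3.82).

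Protein folding in the endoplasmic reticulum stood lower as a group, with 23 of 28 chaperones and disulphide isomerases lower. HSPA5, the main chaperone of that compartment, stood at 52.1, 66.4 and 42.5 FPKM and was 1.56-fold lower (1.44 to 1.7). DNAJC3, its cochaperone, stood at 11.6, 12.9 and 7.63 and was 1.69-fold lower (1.44 to 1.98). Youth was the highest library for each chaperone named here. CALR, the calcium-binding chaperone calreticulin, stood at 87.4, 99.5 and 79.98, a ratio of 0.80 (0.76 to 0.85). FKBP5, a cochaperone of steroid receptors, stood at 90.2, 95.3 and 54.7 and was 1.74-fold lower (1.67 to 1.82). Translocation and glycosylation genes of the same compartment split, with 19 of 37 higher.

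Ubiquitin families were near the background. E2 enzymes had 16 of 32 higher, F-box proteins 25 of 51 and kelch proteins 22 of 42. OTUD1 had the lowest difference of 57 deubiquitinases, at 204, 96.9 and 32.4 FPKM and 2.99-fold lower (2.78 to 3.21), with kid the highest library. KLHL41, the most abundant kelch protein and a stabiliser of thin filaments, stood at 1397, 1267 and 1420.1, a ratio of 1.12 (1.11 to 1.13). ASB5, a SOCS box protein of muscle, stood at 332, 409.6 and 579, a ratio of 1.41 (1.39 to 1.44). Neither of these muscle proteins passed 1.5-fold. Lysosomal enzymes split 32 to 31. GAA, which clears lysosomal glycogen, stood at 11.9, 10.4 and 19.2 and was 1.85-fold higher (1.69 to 2.03). The proton pump of the lysosome had 13 of 17 subunits higher and none past 1.5-fold.

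Spectrins and kinesins leaned lower. Spectrins, ankyrins and protein 4.1, which line membranes, had 13 of 16 lower and a median of -0.31. SPTB, the beta spectrin of muscle and red cells, stood at 62.8, 52.3 and 37.3 FPKM, and EPB41L4A stood at 4.85, 6.53 and 3.47 and was 1.88-fold lower (1.54 to 2.29). Kinesins, motors that walk on microtubules, had 15 of 20 lower, with KIFC3 as an exception at 6.12, 4.56 and 8.62, which was 1.89-fold higher (1.62 to 2.22). Tubulins and their folding factors were even, at 17 of 31 higher. TPPP2, of the family named tubulin polymerization-promoting proteins, stood at 3.43, 4.14 and 14.7 and was 3.55-fold higher (2.82 to 4.5). TUBA8, an alpha tubulin of muscle and testis, stood at 130.2, 97.8 and 149 and was 1.52-fold higher (1.44 to 1.61). TUBB6, a beta tubulin, stood at 17.5, 20.5 and 8.75 and was 2.35-fold lower (2.0 to 2.77).

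LIM and PDZ proteins, many of them of the Z-disc, split 20 to 21. The MICAL2-type entry, gene 102172084, a monooxygenase that oxidises actin, stood at 5.26, 3.06 and 14.4 FPKM and was 4.69-fold higher (3.98 to 5.56). LMCD1, a LIM protein that binds GATA6, stood at 138, 134 and 237 and was 1.78-fold higher (1.7 to 1.85). FHL1, the most abundant, stood at 2813, 2675 and 3509 and was 1.31-fold higher (1.3 to 1.32). In LMCD1 and FHL1 kid and youth lay close and adult was the highest. DES, desmin, the muscle intermediate filament, stood at 4115, 3994 and 4138, a ratio of 1.04 (1.03 to 1.04).

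Several large groups named only by a domain or number were near the background. FAM-named proteins had 72 of 147 higher, coiled-coil proteins 42 of 76 and WD repeat proteins 45 of 79. Ankyrin repeat domain proteins leaned lower, with 12 of 37 higher. Transmembrane proteins named by number had 15 members at least 1.5-fold higher against 2 lower, which is 9.2% and 1.23% of 163. Among the higher was TMEM140, at 12.7, 8.76 and 19.3 FPKM and 2.21-fold higher (1.85 to 2.64). The reticulophagy receptor entry, gene 102190994, listed as FAM134B, stood at 90.6, 119 and 202 and was 1.69-fold higher (1.64 to 1.75). METTL21C, a lysine methyltransferase of muscle, stood at 30.6, 111 and 69.6 and was 1.6-fold lower (1.5 to 1.7), with kid far under both.

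Rows with no product name passed 1.5-fold more often than all genes did, but their read intervals left out 1 less often. Of 460 uncharacterized entries, 32 were at least 1.5-fold higher (6.96%) and 41 lower (8.91%). Their intervals left out 1 for 77 on the higher side and 63 on the lower. For the new loci described next these counts were 76 and 90 of 418, and for all 12121 genes 2706 and 3274. Of 418 loci that the authors named as new, 45 were higher and 45 lower, or 10.8% each way, against 5.4% and 5.45% over all genes. The most abundant of them, Novel00211, stood at 239.5, 202 and 331 FPKM and was 1.64-fold higher (1.58 to 1.7). Novel00134 stood at 17.3, 13.8 and 3.14 and was 4.41-fold lower (3.78 to 5.17). Entries without product text also included genes 102184958 and 102183185, with 0 reads in youth and 74 and 58 in adult, at least 20-fold and 15.7-fold higher against a floor of 3 reads, with exact intervals that began at 15.9-fold and 12.3-fold. These names give no function, and no sequence of these rows was used here.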

How the data were processed

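Per the labels, RNA libraries of longissimus dorsi from 3 goat stages were sequenced, 1 library a stage. The authors deposited FPKM values with a product text for each gene, and FastQC, TopHat2 and DESeq are listed without versions or roles according to the submitters' processing notes. Genome build, counter and strand setting: not given in the sources used here. FPKM of 24689 rows were read with Python 3.11.15 and pandas 2.3.3. Rows averaging 1 FPKM or more in the 3 libraries were kept, and differences are log2(FPKM + 1), adult minus youth, with no test. Reads were recovered from the steps between FPKM values, with totals of 15829474 (kid), 14920689 (youth) and 18399385 (adult). On simulated data for adult against youth with 12113 genes, recovered reads were exact in 93% of genes and too high in none. The recovery was given the known totals. Exact 95% intervals were taken from the simulated reads, not the recovered ones, and 95.6% of them held the true ratio. Intervals from recovered reads were thus not checked. Where too few reads were recovered the interval is too wide. Overlapping, antisense and near-identical genes can share reads.

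Families came from patterns on the product text or from symbol lists. Symbols not in the product text were matched by gene number to RefSeq genes of assembly ARS1.2, which matched 21743 rows and gave 15302 symbols. SRXN1 and TIGAR, for example, carry no function in the product text. The comparison, the families and the lists were chosen with earlier results of these data known, and family patterns were trimmed to drop interacting proteins after values were seen. Named were the 15 highest and 15 lowest differences with a name and at least 5 FPKM, and in families of at least 5 members up to 3 members each way that were 1.5-fold apart and the most abundant. Chosen outside that rule after their values were seen were ALAS1, BCKDHA, BCKDK, C5AR1, COQ10A, COQ10B, CRLS1, GPX1, GPX4, GRPEL2, HMOX1, ID3, KLF11, MFN1, MFN2, ODC1, OPA1, OXCT1, SAT1, SOD1, SPTB and ZFP36, besides the abundant genes so marked. Marker lists not printed in the text summed as follows, in FPKM in youth and adult: B and plasma cells 5.47 and 3.67, neutrophils 2.5 and 2.6, smooth muscle and pericytes 229.8 and 314, Schwann cells 56.8 and 45, satellite cells 12.3 and 11.3, and red cells 0.812 and 1.16. Alternatives were other pseudocounts, filters and scalings.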

Additional observations from a re-analysis of the deposited data

How the results depend on the processing

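With 1 library a stage, nothing here measures the spread between animals, and reads limit only the counting error. The counts of genes apart depended on the pseudocount and the filter. At least 2-fold higher in adult were 122 genes, against 246 when 0.1 was added in place of 1 FPKM, 42 when 5 was added, and 75 with a mean of at least 5 FPKM. At least 2-fold lower were 130, against 309, 40 and 85 under the same settings. At 1.5-fold the higher count of 655 became 267 at a pseudocount of 5 and 410 with a mean of at least 5 FPKM. The lower count of 661 became 1045 at 0.1, 236 at 5 and 373 with a mean of at least 5 FPKM. With both libraries brought to the same FPKM sum, 108 genes were at least 2-fold higher and 167 lower. The median over all genes ran from -0.07 to 0.01 under the scalings. SR and hnRNP proteins higher in adult were 20.6% of members and 5.88% with equal FPKM sums, and mitochondrial import genes higher in adult were 100% with a mean of at least 5 FPKM. All 44 families at least 0.15 from the median of all genes stayed on the same side of it in each of 7 settings. No setting turned the direction of a named gene that was 1.5-fold apart, while ACAT1, DES and OPA1, near a ratio of 1, turned with equal FPKM sums. The alternative of matching members by product text alone was not run, since symbol lists have no product pattern. No paired analysis was possible because each stage has 1 library.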
